A study of Homo sapiens with 6 samples.

Results

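The genes of 9 RNA helicases known to act on RNA quadruplexes were examined for contacts with 2 proteins in HEK293T, an established line from human embryonic kidney with the SV40 large T antigen. The members were EIF4A1, EIF4A2, DDX5, DDX17, DDX3X, DDX21, DDX1, DHX9 and DHX36, which are 9 of 19940 protein-coding genes in the annotation. A peak belonged to a member when its midpoint lay within the gene on the same strand. By this rule 28 of 3660 SF3B4 peaks and 2 of 270 G4PID peaks fell in the members, and 0 peaks of either list lay antisense to one.

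The peaks came from eCLIP, in which RNA crosslinked to a protein is pulled down with it, sequenced and set against input RNA. G4PID, a designed biotin ligase that targets quadruplexes, was expressed from a plasmid and recovered with an anti-HA antibody. SF3B4, a subunit of the U2 small nuclear ribonucleoprotein that binds introns around the branch point, was recovered with an anti-SF3B4 antibody, and the input libraries had no antibody. The 6 libraries comprised 2 per group, all HEK293T. The protocol text, shared by all samples, gives transfection with the ligase plasmid or a plasmid for the untargeted ligase miniTurboID, followed by 500 µM biotin for 30 min, so it does not settle which treatment the SF3B4 and input cells received. The deposited data used here were 1 peak list per antibody. They hold no value per library, so no spread between replicates and no test across them can be given, and the read depth is unknown. A peak list holds no RNA level, so the labelled cell line was not checked against marker genes, and a gene without a peak is not shown to be unbound.

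A quadruplex is a fold in which guanine runs of one strand stack on each other, and in RNA it can stall ribosomes and hide binding sites until a helicase opens it. DEAD-box helicases separate short duplexes locally with each cycle of ATP hydrolysis, whereas the DEAH-box enzymes DHX9 and DHX36 move along a strand. EIF4A1 and EIF4A2 are the helicase subunits of the cap-binding complex eIF4F. DDX5 and DDX17 act in splicing and microRNA processing, DDX3X in translation, DDX21 in ribosomal RNA synthesis and DDX1 in tRNA ligation. DHX36 binds quadruplexes through a dedicated motif near its amino terminus.

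Both G4PID peaks that the list places in the helicase genes are shown first. Capitals mark the bases inside the deposited peak, and all sequences are on hg38, 5′ to 3′, in the sense of the RNA. The first is the small nucleolar RNA SNORA63B within EIF4A2 (chr3:186786323-186786445, plus strand), and the second is the part of exon 1 of DHX36 that holds the peak, with the 50 nt before it (chr3:154324198-154324301, minus strand).
SNORA63B: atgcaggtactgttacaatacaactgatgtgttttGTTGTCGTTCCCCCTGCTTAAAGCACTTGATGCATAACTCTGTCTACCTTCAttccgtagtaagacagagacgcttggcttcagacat
DHX36: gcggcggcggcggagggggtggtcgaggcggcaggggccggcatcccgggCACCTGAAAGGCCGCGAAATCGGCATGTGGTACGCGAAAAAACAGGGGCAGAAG

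The DHX36 peak (chr3:154324198-154324251) lay in coding sequence of exon 1 (chr3:154324174-154324497). The authors' value for it, read as the log2 fold over input, was 4.61, and its −log10 p-value was 8.84. The peak began after 165 coding bases and covered codons 56 to 73, in frame over all 18 codons, and it ended 24 nt before the end of the exon. These codons belong to the motif by which DHX36 recognises quadruplexes, and peptides with this motif are used as quadruplex probes. The coding sequence of the transfected ligase was not analysed here. If it holds the same stretch, reads of its transcript and reads of the cell's own DHX36 RNA cannot be told apart in this peak. The 50 nt upstream of the peak held 30 G, with 3 runs of 3 or more, and the peak itself held 18 G in 54 nt (33.3%).

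The EIF4A2 peak of G4PID (chr3:186786358-186786409) lay in intron 6, with all 52 nt inside SNORA63B, an H/ACA small nucleolar RNA of 123 nt. Its log2 fold was 4.43 and its −log10 p-value 42.9. It was 1 of 270 G4PID peaks to overlap an annotated small nucleolar RNA, against 0 of 3660 SF3B4 peaks. The annotation names the RNA only by its RNA family, and the symbol is RefSeq's for the same position. Intron 8 of EIF4A2 holds the related SNORA63, and the sources do not say where reads fitting both copies were placed. Reads in the G4PID peak from the released small nucleolar RNA and from unspliced EIF4A2 RNA cannot be told apart. In contrast to DHX36, this peak was poor in guanine, with 8 G in 52 nt (15.4%).

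By count, 2 of 9 members had a G4PID peak, where 0.496% of all protein-coding genes and 0.573% of those with at least 10 introns had one. As the members were chosen with these lists known, this count was not tested. Both counted peaks carry the limits on their source RNA given above. The folds of both peaks were below the median of the G4PID list (4.92), and they ranked 169 and 179 of 270. With counts of 1 per gene, no order between EIF4A2 and DHX36 was read from them.

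SF3B4 peaks were found in 6 of 9 members (66.7%, 95% Wilson interval 35.4 to 87.9%, counting error only), where 8.84% of protein-coding genes and 16.6% of those with at least 10 introns had one. The members were chosen with these lists known, so this share was not tested. EIF4A2 had 8 peaks, DDX17 7, DDX5 6, EIF4A1 and DHX9 3 each, and DDX3X 1. Among protein-coding genes with an SF3B4 peak the median was 1 peak, 77 genes had 6 or more and 22 had 8 or more. DDX21, DDX1 and DHX36 had none.

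The log2 fold of the 28 peaks ran from 3.20 in DHX9 to 6.85 in EIF4A1, with a median of 4.51, beside a median of 3.93 and a maximum of 7.60 over the whole SF3B4 list. The median of the list was reached by 22 of the 28. The EIF4A1 peak at intron 5 ranked 7 of 3660, and both DDX5 peaks above 6 ranked 33 and 36. EIF4A2, with the most peaks, had folds of 3.51 to 4.81 only, so peak number and fold did not order the genes alike. For 16 of the 28 another peak of the list had the same fold and p-value. A −log10 p-value of 15.7, common to 300 peaks of the list, stood in 7 of the 28. The EIF4A1 peak ranked 7 and the DDX5 peaks ranked 33 and 36 were among these, so their p-values did not differ.

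**Figure D1:**
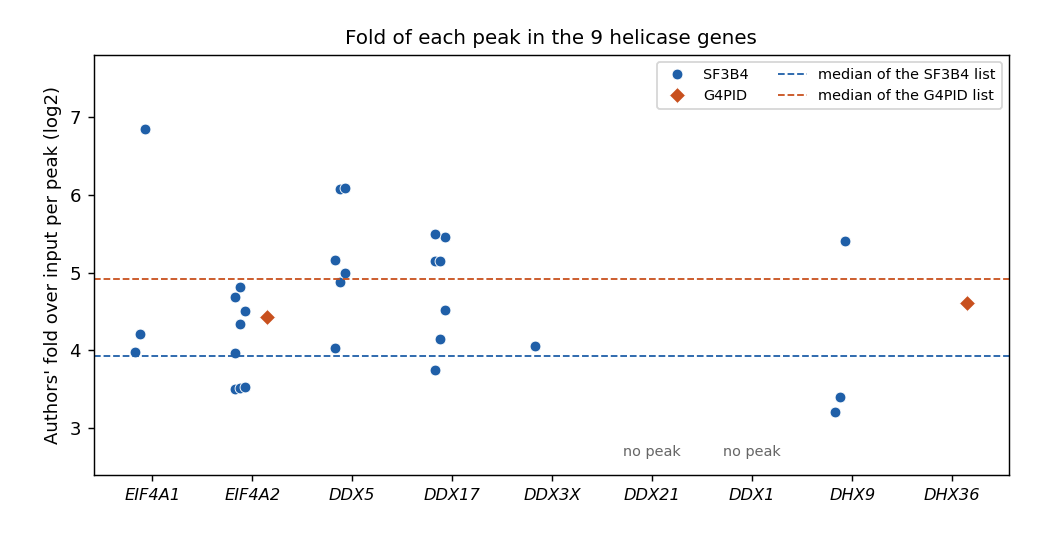
Each point is 1 peak, with the authors' log2 fold over input on the vertical axis and the gene on the horizontal axis, circles for SF3B4 and diamonds for G4PID. Dashed lines are the medians of the whole lists (3.93 for SF3B4, 4.92 for G4PID), and both diamonds lie below theirs.

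Counted over the introns of each gene's principal transcript, SF3B4 marked very different shares. An intron was counted when a peak midpoint lay 1 to 100 nt upstream of its 3′ splice site, which held for 1.61% of introns over all protein-coding genes. EIF4A2 had such a peak at 7 of 10 introns (70.0%), DDX5 at 6 of 12, DDX17 at 4 of 12 (33.3%) and EIF4A1 at 3 of 10 (30.0%). DHX9 had one at 3 of 27 introns (11.1%) and DDX3X at 1 of 16 (6.25%). The DDX17 count leaves out a peak at intron 11 with its midpoint 103 nt upstream, just beyond the limit of 100 nt. The 14 introns of DDX21, the 26 of DDX1 and the 24 of DHX36 had 0. The RNA level of these genes was not measured here, so its part in these shares was not tested.

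**Figure D2:**
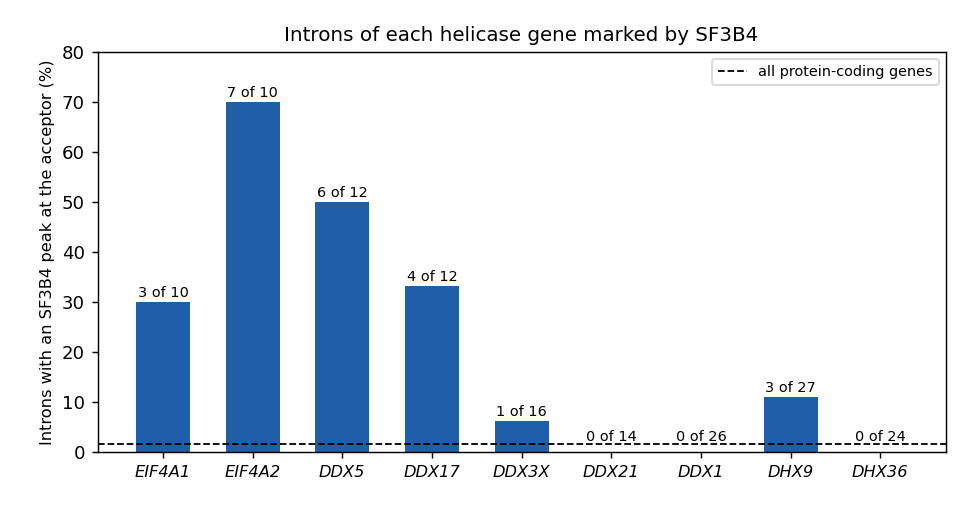
Bars give the percentage of introns of the principal transcript with an SF3B4 peak midpoint 1 to 100 nt upstream of the 3′ splice site, with the counts above each bar. The dashed line is the share over all protein-coding genes (1.61%), and EIF4A2 stands highest at 70.0%.

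All 28 SF3B4 peaks were intronic by midpoint, and 22 (78.6%, 95% Wilson interval 60.5 to 89.8%) lay in the stretch 10 to 60 nt before a 3′ splice site, taking the nearest site of the basic transcript set. Outside the members, 68.8% of 3597 SF3B4 peaks did so (67.3 to 70.3%), within the interval of the members. This also held with the splice sites of all transcripts, with 82.1% in the members (64.4 to 92.1%) and 70.9% outside. It did not hold in every setting. With a narrower window of 15 to 45 nt the shares were 75.0% in the members (56.6 to 87.3%) and 54.3% outside, and with the 5′ end of the peak as its position 67.9% (49.3 to 82.1%) and 45.3%, so that the share outside lay below the members' interval in both. The intervals take peaks as independent, although peaks of the same gene are not replicates, and the members were chosen with these lists known. The difference was not tested. The median midpoint was 30.5 nt upstream. Neither G4PID peak lay in that stretch. The one in EIF4A2 was 119 nt upstream of its 3′ splice site, and the one in DHX36 was exonic.

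**Figure D3:**
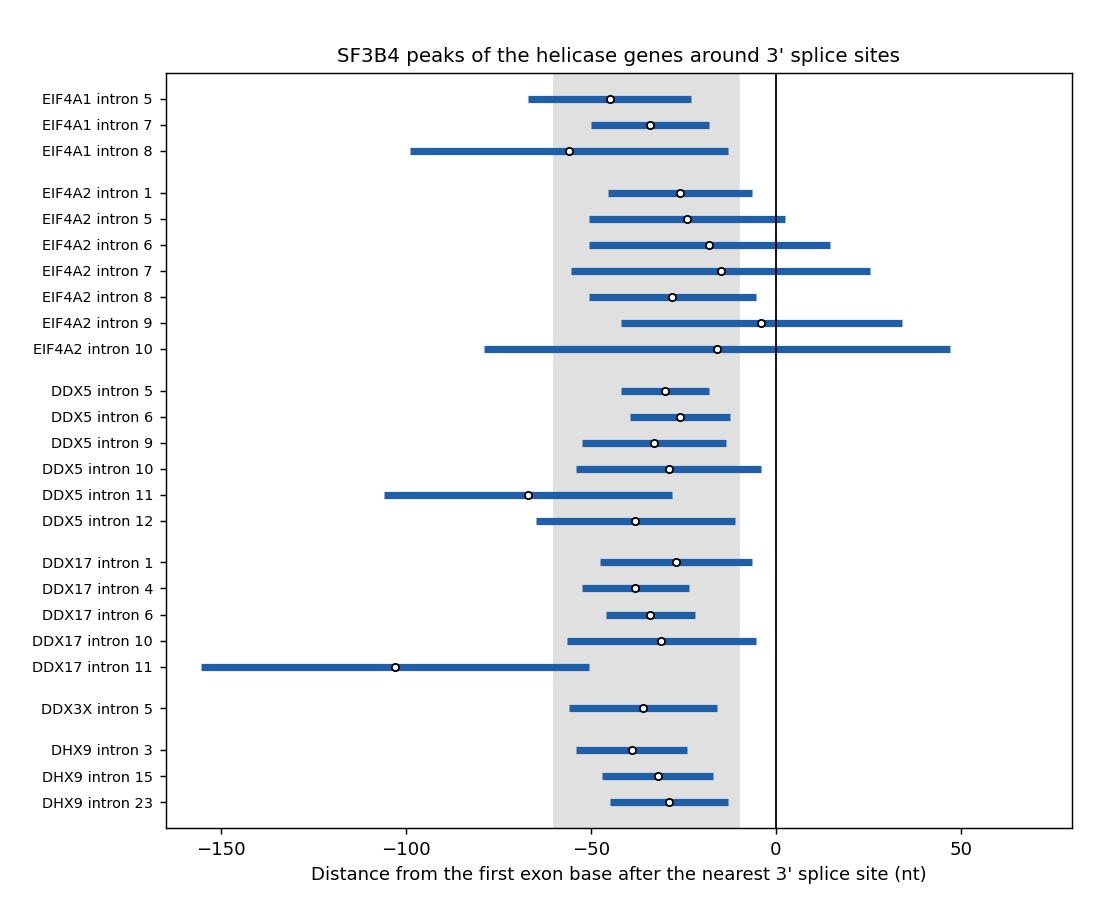
Each bar is the extent of 1 SF3B4 peak and each white point its midpoint, by distance in nt from the first exon base after the nearest 3′ splice site (vertical line), and the grey band spans 10 to 60 nt upstream. The 3 peaks with midpoints more than 160 nt away, 2 in DDX17 and 1 in EIF4A2, are not drawn, and the longest bars over the line belong to EIF4A2.

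The peaks of the members sat differently on the junction between intron and exon. Of the 8 EIF4A2 peaks, 5 ran across the junction, whereas 0 of the 20 peaks in DDX17, DDX5, EIF4A1, DHX9 and DDX3X did. Outside the members 46.3% of 3597 peaks crossed it. The members' peaks were also narrower, with a median width of 47.5 nt against 71 nt over the list. This comparison was chosen after the values were seen and was not tested.

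The 2 cap-complex helicase genes EIF4A1 (chr17:7572706-7579005) and EIF4A2 (chr3:186783205-186789900) are paralogues with a shared intron layout, which allowed a comparison intron by intron. Their proteins, translated from the annotated coding sequence, were identical at 364 of 406 aligned residues (89.7%), and 9 coding introns lay at the same codon and phase. All 3 EIF4A1 peaks were at introns whose EIF4A2 counterpart also had a peak, introns 5, 7 and 8. A further 3 shared introns (6, 9 and 10) had a peak in EIF4A2 only, and 3 (2, 3 and 4) in neither. The paralogues share an origin and are not independent, and no test was made of this overlap.

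Intron 5 carried the highest fold of the helicase genes in EIF4A1 (log2 fold 6.85, chr17:7576990-7577033, midpoint 45 nt upstream of the splice site). The EIF4A2 counterpart stood at 4.69 (chr3:186786114-186786166, 24 nt upstream). At intron 7 the order was the other way, with 3.98 in EIF4A1 (chr17:7577520-7577551) and 4.81 in EIF4A2 (chr3:186787072-186787152). At intron 8 the values were 4.21 (chr17:7577729-7577814) and 3.97 (chr3:186787445-186787489). The introns differed in length, 363 against 112 nt for intron 5, 81 against 481 nt for intron 7 and 120 against 230 nt for intron 8, so a peak in both genes did not go with introns of like length.

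The ends of introns 5 and 7 are shown for both genes, because peaks met there at the same place in the protein while the RNA sequence around them differed. Each line ends with the last base of the intron, and capitals mark the bases inside the SF3B4 peak. The stretches are chr17:7576966-7577055, chr3:186786074-186786163, chr17:7577488-7577568 and chr3:186787037-186787126, all on the plus strand. The 81 nt of EIF4A1 intron 7 are the whole intron.
EIF4A1 intron 5: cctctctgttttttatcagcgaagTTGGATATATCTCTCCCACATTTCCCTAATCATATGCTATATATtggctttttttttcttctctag
EIF4A2 intron 5: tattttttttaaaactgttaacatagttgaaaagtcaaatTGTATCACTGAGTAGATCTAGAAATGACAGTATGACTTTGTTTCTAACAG
EIF4A1 intron 7: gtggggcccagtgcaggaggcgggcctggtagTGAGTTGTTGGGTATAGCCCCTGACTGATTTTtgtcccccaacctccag
EIF4A2 intron 7: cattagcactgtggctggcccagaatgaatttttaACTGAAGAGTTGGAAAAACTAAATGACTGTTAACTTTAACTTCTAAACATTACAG
At these 2 introns the EIF4A1 peaks stop before the pyrimidine-rich end, and the EIF4A2 peaks run through the final AG.

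**Figure D4:**
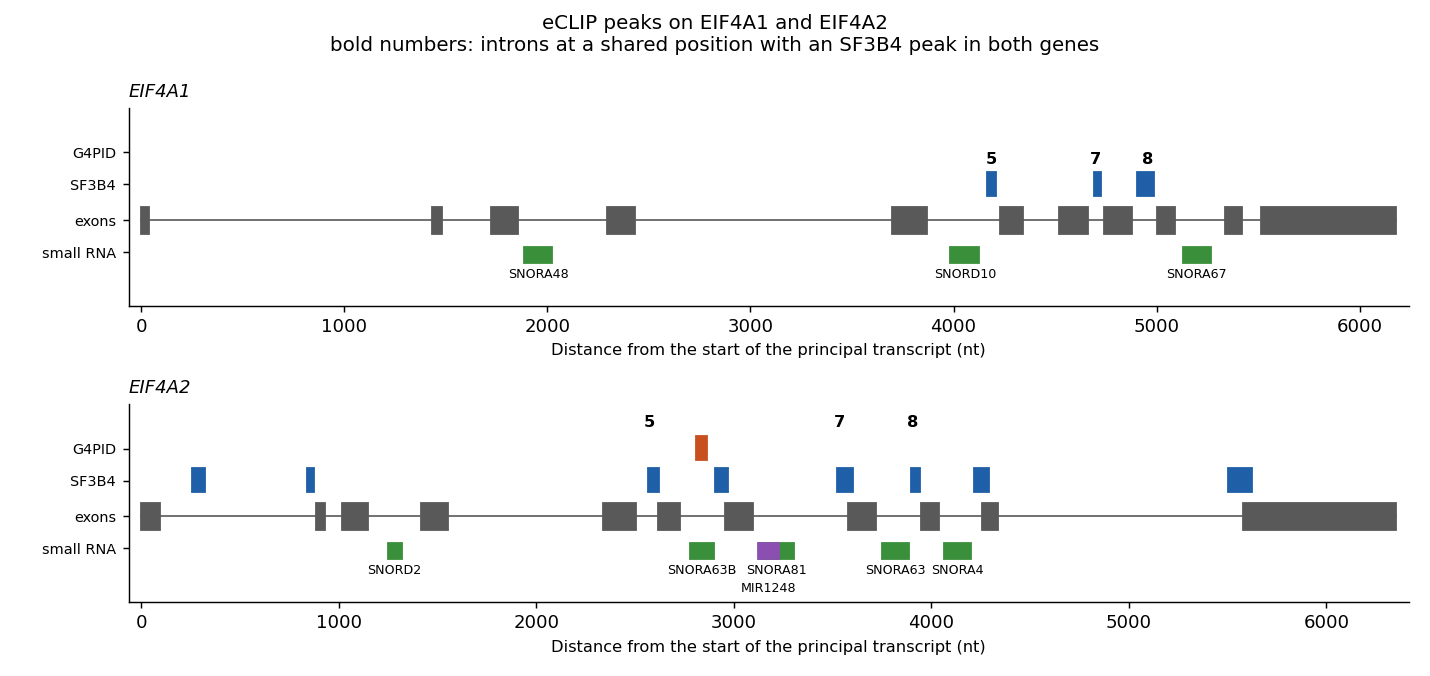
Exons (grey), small nucleolar RNAs (green), a microRNA (purple) and peaks (blue for SF3B4, orange for G4PID) are drawn to scale by distance in nt from the start of the principal transcript. Bold numbers name the 3 introns at a shared position with an SF3B4 peak in both genes, and the G4PID peak lies over SNORA63B in EIF4A2.

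Both genes host small nucleolar RNAs, which are released from spliced introns. In EIF4A2, 4 of the 5 host introns had an SF3B4 peak at their 3′ splice site, those of SNORA63B (log2 fold 4.34), SNORA81 together with MIR1248 (4.81), SNORA63 (3.97) and SNORA4 (4.50), and the SNORD2 intron had none. In EIF4A1, 1 of 3 host introns had one, that of SNORD10 (6.85), and those of SNORA48 and SNORA67 had none. Over the 9 members 6 of 9 introns with a small RNA had a peak (66.7%), beside 18 of 142 others (12.7%). The host introns all lie in EIF4A1, EIF4A2 and DDX5, genes with many peaks, and so are not independent of the gene. The SF3B4 peaks of these introns overlapped a small nucleolar RNA in 0 cases.

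In EIF4A2 intron 6 the peaks of both proteins were close but separate. The G4PID peak ended 42 nt before the SF3B4 peak of the same intron (chr3:186786452-186786516, log2 fold 4.34), and their midpoints were 101 nt apart. The ligase was found over the small nucleolar RNA and SF3B4 from just past its end into the next exon. The lists do not tell whether both contacts were on the same RNA molecule. DHX36, the other gene with a G4PID peak, had 0 SF3B4 peaks.

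EIF4A2 also had 1 peak outside the usual stretch, 593 nt upstream of the splice site of intron 1 (chr3:186783805-186783867, log2 fold 3.52). Its intron 9 peak (chr3:186787762-186787837, 4.50) was centred 4 nt upstream of the splice site, too close to be counted in the stretch. Intron 10 held the peak with the lowest fold of the gene (3.51) and the widest extent, 126 nt (chr3:186789047-186789172).

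DDX5 (chr17:64499616-64508199, minus strand) and DDX17 (chr22:38483440-38507660, minus strand) form a second paralogous pair, known for shared roles in splicing and in the handling of primary microRNAs. Their proteins were identical at 438 of 604 aligned residues (72.5%), and 10 coding introns lay at the same codon and phase. Of these, introns 6 and 10 had an SF3B4 peak at the splice site in both genes. Introns 5, 9 and 11 had one in DDX5 only, intron 4 in DDX17 only and 4 in neither. At intron 11 this difference rests on the limit of 100 nt used for the count. The DDX5 midpoint lay 67 nt upstream of the splice site, and a DDX17 midpoint lay 103 nt upstream, just beyond the limit.

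The 6 DDX5 peaks had log2 folds of 6.07 at intron 5, 6.09 at intron 6, 5.16 at intron 9, 4.87 at intron 10, 4.04 at intron 11 and 5.00 at intron 12. The peaks at introns 5 and 6 were the highest and the narrowest of the gene, at 24 and 27 nt. In 5 of the 6 the midpoint was 26 to 38 nt upstream of the splice site, and the exception was intron 11. The end of intron 6, the position marked in both genes, is printed whole from its first base because the intron is only 81 nt long (chr17:64503349-64503429, minus strand, capitals inside the peak).
DDX5 intron 6: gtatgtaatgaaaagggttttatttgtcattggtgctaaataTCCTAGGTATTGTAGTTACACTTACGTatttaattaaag

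Intron 11 of DDX5 ends in a microRNA hairpin. MIR3064 is annotated at chr17:64500774-64500839, and its last base is the last base of the intron, so the hairpin and the 3′ splice site coincide. The SF3B4 peak there (chr17:64500802-64500879, log2 fold 4.04, −log10 p-value 84.3) covered 38 of the 66 hairpin bases and stopped 28 nt before the end of the intron, with its midpoint 67 nt upstream. A 3′ splice site used by a noncoding transcript outside the basic set was nearer, and the midpoint lay 42 nt downstream of it. Over the whole list 18 of 3660 SF3B4 peaks overlapped an annotated microRNA hairpin. MIR5047, in the same intron, was not overlapped. The intron end is shown from the start of the peak (chr17:64500774-64500879, minus strand, capitals inside the peak), followed by both mature microRNAs from RefSeq (GRCh38.p14) with the seed, bases 2 to 8, in capitals.
DDX5 intron 11: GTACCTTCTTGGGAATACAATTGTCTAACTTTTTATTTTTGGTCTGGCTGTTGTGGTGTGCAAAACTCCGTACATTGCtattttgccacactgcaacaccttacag
hsa-miR-3064-5p: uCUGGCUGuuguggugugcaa
hsa-miR-3064-3p: uUGCCACAcugcaacaccuuaca
The 5p microRNA lies inside the peak and the 3p microRNA lies downstream of it, next to the splice site.

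DDX17 had 7 peaks, 4 of them 27 to 38 nt upstream of a splice site. Their log2 folds were 5.45 at intron 1, 5.50 at intron 4, 4.53 at intron 6 and 5.15 at intron 10. The other 3 lay elsewhere in introns 6 and 11. The peak with the highest −log10 p-value of any member, 400, which is the maximum of the list and shared by 15 peaks, was 103 nt upstream of the splice site of intron 11 (chr22:38488166-38488270, log2 fold 4.15). Its 105 nt were 74.3% pyrimidine. A second peak of intron 11 (chr22:38490447-38490499, 5.15, −log10 p-value 50.4) lay 1642 nt from the nearest splice site of the basic set but 37 nt upstream of one used by a noncoding transcript outside that set. The third (chr22:38495469-38495547, 3.75) lay in intron 6, and its nearest annotated 3′ splice site was 429 nt upstream, at the exon before that intron.

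The sequences of both intron 11 peaks are given, since these are 2 of the 6 member peaks outside the stretch 10 to 60 nt before a splice site of the basic transcripts (minus strand, capitals inside the peak). The second runs on to the last intron base before the exon of that noncoding transcript (chr22:38490437-38490499).
DDX17 intron 11, near the end: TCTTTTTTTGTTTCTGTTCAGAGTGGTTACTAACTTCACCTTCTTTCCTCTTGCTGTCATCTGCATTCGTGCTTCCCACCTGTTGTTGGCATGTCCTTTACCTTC
DDX17 intron 11, inner site: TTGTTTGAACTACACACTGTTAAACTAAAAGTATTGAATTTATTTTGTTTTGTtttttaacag
The inner site ends in a run of T and the bases AG, and the peak stops 10 nt before that end.

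**Figure D5:**
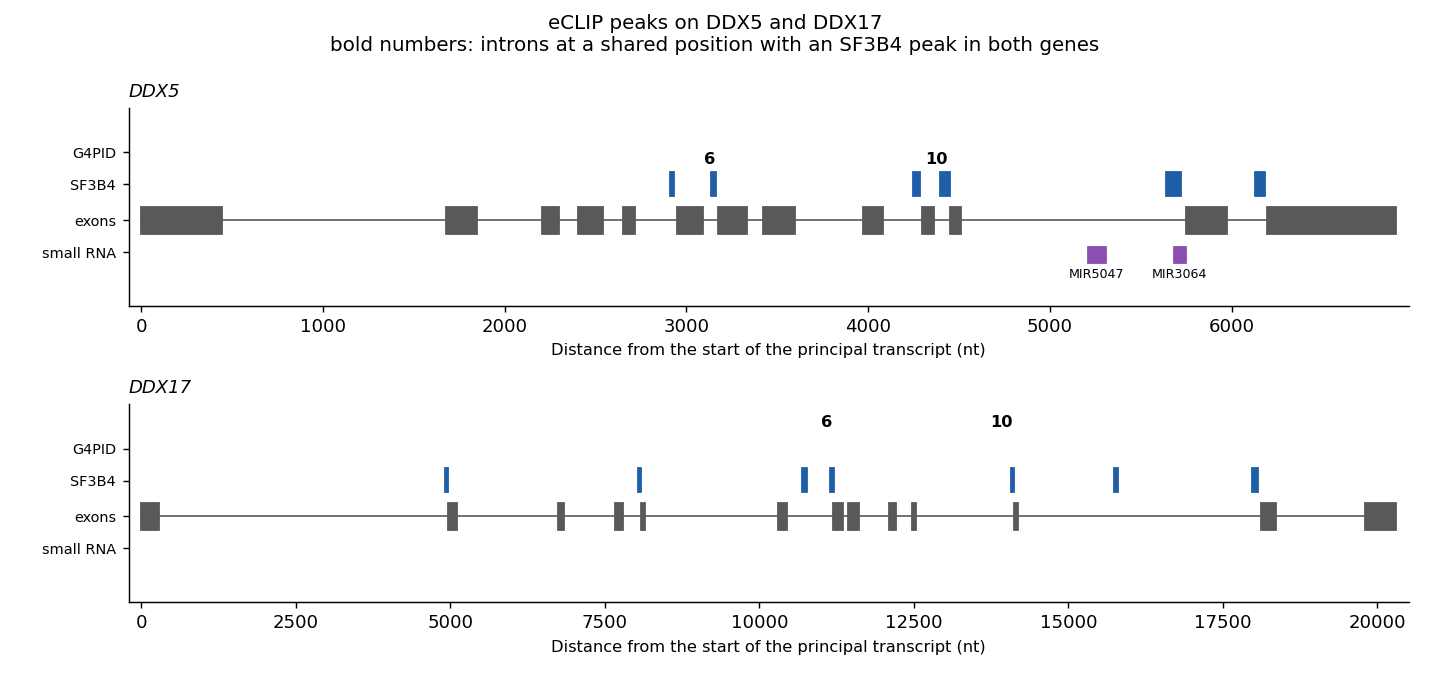
Exons (grey), microRNAs (purple) and SF3B4 peaks (blue) of DDX5 and DDX17 are drawn to scale by distance in nt from the start of the principal transcript. Bold numbers name introns 6 and 10. These are the 2 shared positions with an SF3B4 peak midpoint within 100 nt upstream of the splice site in both genes. Intron 11 is not among them, as its nearest DDX17 midpoint lies 103 nt upstream. No G4PID peak is present.

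The remaining members with SF3B4 peaks had few. DHX9, which also acts on RNA-DNA hybrids, had peaks at intron 3 (chr1:182852180-182852209, log2 fold 3.40), intron 15 (chr1:182874808-182874837, 3.20) and intron 23 (chr1:182881476-182881507, 5.40). Their midpoints lay 39, 32 and 29 nt upstream of the splice sites. Intron 3 is 8798 nt long, intron 15 is 2360 nt and intron 23 is 94 nt, and the highest fold stood at the shortest. DDX3X, encoded on the X chromosome, had its peak at intron 5, an 83-nt intron (chrX:41342682-41342721, log2 fold 4.05, 36 nt upstream). The stretch from the start of that peak to the end of the intron is printed as an example of a single marked splice site (chrX:41342682-41342736, plus strand, capitals inside the peak).
DDX3X intron 5: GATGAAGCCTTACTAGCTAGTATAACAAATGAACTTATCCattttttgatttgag

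Each peak with 50 nt on either side was searched on both strands for a quadruplex motif, taken as 4 runs of 3 or more G spaced by 1 to 7 nt. Sequence was known only where an annotated transcript covered it. Of the 28 SF3B4 windows 18 could be searched, and 0 held the motif in sense and 0 in antisense, beside 4.36% and 5.70% of the 1492 searchable windows of the whole list. With shares this low, 0 of 18 windows does not set the members apart from the list. The DHX9 windows and most DDX17 windows could not be searched. Of the 2 G4PID windows, the EIF4A2 window could be searched in full and did not hold it, beside 5.63% in sense and 10.6% in antisense over 160 windows of the list. The DHX36 window was known over 128 nt and held no match there, although 4 runs of at least 2 G with the same spacing were present, as they were in sense in 46.9% of the 160 searchable windows of the list. That these letters are absent from the windows says nothing of folds that other sequences can form.

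Other genes of the same families were taken from fixed lists. Of the 49 other DEAD-box and DEAH-box genes 12 had an SF3B4 peak (24.5%, beside 8.84% of all protein-coding genes), led by DDX11 (log2 fold 5.71 over 6 peaks), DDX46 (5.66) and DHX30 (5.15), and 0 had a G4PID peak. Of the 12 helicases of the spliceosome 6 had an SF3B4 peak, led by DDX46, the U2-associated DDX42 (4.84) and DDX41 (4.69). Of 10 listed genes for eIF4F subunits, their relatives and regulators, 2 had an SF3B4 peak, EIF4G2 (5.74 over 4 peaks) and EIF4G1 (5.66 over 8). Of 12 helicases that open DNA quadruplexes 7 had an SF3B4 peak, led by DDX11, RECQL4 (5.24 over 5 peaks) and PIF1 (4.50), and RECQL4 alone also had a G4PID peak (4.99). Of 24 other proteins that bind RNA quadruplexes 12 had an SF3B4 peak, led by HNRNPH1 (7.13), HNRNPU (6.68) and HNRNPA1 (5.97), and 0 had a G4PID peak. For G4PID the share over all protein-coding genes was 0.496%, so counts this low in lists of this size say little. These lists overlap, as DDX11, DDX46, DDX42 and DDX41 show, and they were not tested.

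The genes whose SF3B4 pattern was most like that of EIF4A2, measured by the distance in peak number and highest log2 fold, were ACADVL (8 peaks, highest log2 fold 4.88), CDK10 (8, 5.09) and CPSF1 (8, 4.31). EIF4A2 itself had 8 peaks with a highest fold of 4.81.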

How the data were processed

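RNA contacts of G4PID and SF3B4 were measured by eCLIP in HEK293T cells. The submitters' processing notes name cutadapt 3.4 and STAR 2.7.0d, and list both hg19 and hg38. How peaks were called, filtered and joined over replicates is not stated there. The authors deposited 1 headerless list per antibody. Its values were read, from their order and range, as the −log10 p-value of each peak and its log2 fold over input, both as deposited by the authors, and were used only to describe or rank peaks within a list.

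Peaks were placed by midpoint and strand on GENCODE release 29, protein-coding genes and exons first. EIF4A1 also lies within the readthrough gene SENP3-EIF4A1, and its peaks were given to EIF4A1. Principal transcripts were those so tagged, then those of the longest coding sequence. Sequence was rebuilt from annotated transcripts, with 0 disagreeing bases. Proteins were aligned globally with BLOSUM62. Distance and motif code was tested on simulated positions. Python 3.11.15, scipy 1.17.1, biopython 1.88 and matplotlib 3.10.9 were used.

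The members, lists and comparisons were chosen with earlier results of these data known. All members were named, and of each list the 3 genes with the highest fold. The 3 genes nearest to EIF4A2 in peak number and highest fold were named too. Alternatives covered the assignment rule, stricter thresholds, merging, the splice site set and the motif. Wilson intervals cover counting error only.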

Additional observations from a re-analysis of the deposited data

How the results depend on the processing

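The count of 28 SF3B4 peaks became 20 at a log2 fold of at least 4 and 25 at a −log10 p-value of at least 10, and 5 of the 6 members kept a peak at the latter. With that p-value 1 of the 2 G4PID peaks was left, the one in EIF4A2. The share of SF3B4 peaks 10 to 60 nt upstream of a 3′ splice site, 78.6%, ranged from 67.9% with the 5′ end of the peak as its position to 82.1% with the splice sites of all transcripts. Outside the members it was 45.3% with the 5′ end and 54.3% with a window of 15 to 45 nt. With the splice sites of all transcripts the share outside was 70.9%. Counted as overlap rather than within 100 nt, 0 G4PID peaks of the members met an SF3B4 peak. Runs of at least 2 G were an alternative chosen after seeing the data. With these, 3 of the 18 searchable SF3B4 windows (16.7%) held a quadruplex motif in sense, 1 in EIF4A1 and 2 in EIF4A2. The share was 41.5% over the 1492 searchable windows of the list. No paired analysis was possible because each antibody has 1 list without values per library, and for the same reason no library could be left out. Depth is unknown.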

Other observations

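Of the 151 introns in the principal transcripts of the 9 helicase genes, 33 are spanned whole by an exon of another annotated transcript, such as a retained-intron form. An SF3B4 peak stood at the 3′ splice site of 13 of these (39.4%) and of 11 of the 118 others (9.32%). The median length was 230.5 nt for the 24 introns with a peak and 910 nt for those without. Within the 6 genes that hold an SF3B4 peak, the counts were 13 of 32 (40.6%) and 11 of 55 (20.0%), and the median length without a peak was 611 nt. EIF4A2 (9 introns spanned, 6 with a peak), EIF4A1 (6 and 2) and DDX5 (6 and 4) held most of them, while DDX3X had 10 spanned introns and 1 peak. By gene, the median lengths with and without a peak were 120 and 248 nt in EIF4A1, 230 and 265 in EIF4A2 and 218.5 and 236 in DDX5. The single DDX3X intron with a peak had 83 nt, against a median of 379. In DDX17 (1171.5 and 1132 nt) and DHX9 (2360 and 969 nt) the introns with a peak had the longer median. The introns share their genes, so gene, length and annotation cannot be told apart here.

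The 5-base string CTNAC, a form of the branch point consensus, was searched on both strands 10 to 60 nt upstream of 3′ splice sites of the basic set. It stood in sense at 6 of 18 searchable sites of the helicase genes with an SF3B4 peak (33.3%) and at 4 of 38 without one (10.5%). Over 30492 searchable sites of all protein-coding genes the share was 25.8%. In antisense the shares were 27.8%, 13.2% and 10.9%. These are descriptions of few sites, chosen by which introns the annotation covers.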
